A study of Arabidopsis thaliana with 18 samples.

Results

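The comparison described here set rosette leaves of the Arabidopsis thaliana mutant sid2-2 against those of wild type Col0, both sprayed with safeners. Its members were 6 of the 18 arrays of the series, the 3 labelled sid2-2 with safener and the 3 labelled Col0 with safener. The labels call the 3 samples of a group biological replicates, and say nothing on plants or pots pooled in a sample. All plants were 4 weeks old and grown on soil in long days. The safener spray held mefenpyr at 5 mM together with isoxadifen at 7.2 mM, and each pot received 875 µL. Mock spray held DMSO, the solvent of the safener stocks, and whether it also held the emulsifier of the safener formulation is not given in the sources used here. The time from spray to harvest and the accession background of the mutant are not given there either. The 3 sid2-2 mock arrays and the 3 Col0 mock arrays were used for the same genotype comparison without safener. The remaining 6 arrays carry RNA of tga2tga3tga5tga6, a mutant labelled with 4 TGA transcription factor genes, after mock or safener spray.

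Safeners are compounds that protect crops from herbicides by raising the plant's own detoxification, through glutathione transferases, cytochrome P450 enzymes, UDP-glycosyltransferases (UGTs) and transporters. SID2 encodes isochorismate synthase 1, the chloroplast enzyme behind most of the salicylic acid that Arabidopsis makes under stress, so sid2-2 plants make little of that hormone. Salicylic acid acts through NPR1 and TGA factors on defence genes, and it restrains the jasmonate branch, whose classic readout in leaves is the plant defensin PDF1.2. The mutated gene itself is not analysed here, so the genotype labels were not checked on it.

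Intensity is the brightness of a probe set, a group of probes for 1 transcript, on a linear scale on which the authors' values have a median of about 200 on every array. Between 14627 and 16408 of 22746 probe sets had a listed value on an array, with the fewest on Col0 safener replicate 1, and the other cells were blank. Replicates of a group correlated at 0.979 to 0.994 on the log2 scale. A probe set was tested where both groups had at least 2 listed values, which left 14900. Differences are given as log2 of sid2-2 over Col0 with their standard errors (SE). A difference was called at an adjusted p under 0.05 from limma, fitted to all 18 arrays. With 3 arrays a group, an exact permutation test of a single gene cannot go below p = 0.1, so the p-values given are limma's. The probe sets are levels in whole leaves, where fewer cells of a type and less RNA per cell cannot be told apart. Among the leaf markers tested, LHCB4.1, a light-harvesting protein of photosystem II, lay between 5014 and 6125 on the 6 safener arrays. The single named root marker, PYK10, lay between 228 and 328 on them, above the median of about 200. Markers of xylem, flowers and seeds were not named in the annotation and are not analysed here.

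Under safener, sid2-2 leaves had strongly lower levels of UGT76B1, of the lectin-like gene AT5G03350 and of the EDS1 homologue AT3G48080, and higher levels of the defensin PDF1.2, of UGT73C1 and of some detoxification genes. In all, 1332 probe sets were higher in sid2-2 (8.94% of those tested) and 622 were lower (4.17%). At an unadjusted p under 0.05, 4191 differed. Most differences were small, with a median size of 0.52 log2 units among the called. At least 2-fold differences were called for 77 probe sets that were higher (0.517%) and 93 that were lower (0.624%). All listed sid2-2 arrays lay above all listed Col0 arrays for 21.5% of the probe sets tested and below them for 9.79%, so separate groups alone are common. The balance of directions moved with the scaling: with each array centred on the probe sets listed on all arrays, 929 were higher and 964 lower, so the higher made up 49.1% of the calls against 68.2% on the deposited scale. Without Col0 safener replicate 1, 739 probe sets were higher, without sid2-2 safener replicate 2, 740, and without sid2-2 safener replicate 1, 877. The lower calls and the at least 2-fold calls moved by less than 1.5 times without any 1 array of the comparison.

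UGT76B1 (AT3G11340), a glucosyltransferase that conjugates isoleucic acid, salicylic acid and N-hydroxypipecolic acid, had the largest fall of any named gene. Its intensity was 1456, 1521 and 1508 on the Col0 arrays and 271, 254 and 261 on the sid2-2 arrays. Replicates within each group were close together. The level was 5.71-fold lower in sid2-2 (log2 -2.51, SE 0.20, adjusted p = 8.81e-08, limma). In mock leaves it was 630, 614 and 565 in Col0 and 66.4, 65.7 and 133 in sid2-2, so both genotypes stood higher after safener while the gap remained (log2 -2.85, SE 0.19). The gap did not differ detectably between the treatments (log2 0.34, SE 0.28, adjusted p = 0.70, limma).

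**Figure D1:**
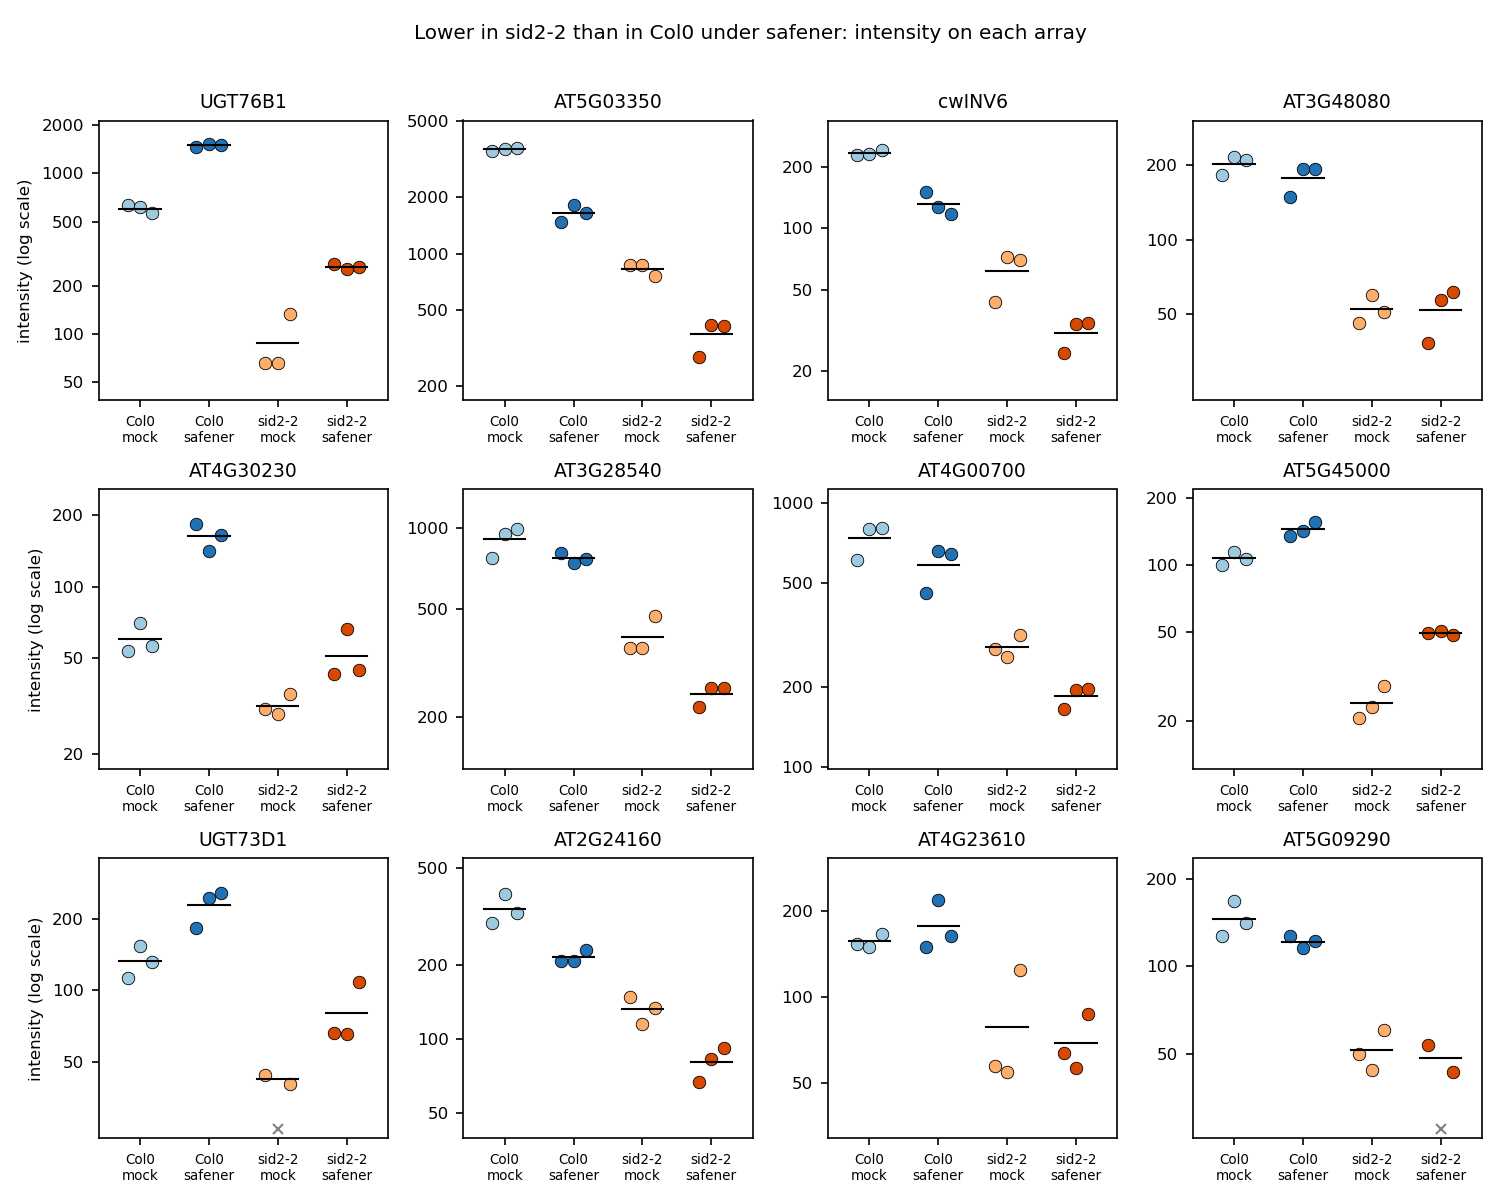
Intensity (log scale) of the 12 named genes with the largest falls in sid2-2 under safener, on each array of 4 groups of 3 arrays. Points are arrays, black lines are group means, and a grey x is an array with no listed value; for UGT76B1 the sid2-2 safener arrays lie between 254 and 271 and the Col0 safener arrays between 1456 and 1521.

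Of 39 genes on the salicylic acid response list, 4 are named in the annotation, and the other 35 are not analysed here. All 4 were tested and called lower (against 4.17% of all probe sets), with a median log2 difference of -0.96 against 0.09 over all probe sets tested, and the 4 calls held under every alternative run. AT5G03350, a legume-lectin-like gene known to be induced by salicylic acid, read 1474, 1816 and 1641 in Col0 and 285, 420 and 415 in sid2-2. The level was lower by 2.16 log2 units (log2 -2.16, SE 0.13, adjusted p = 3e-09, limma). WRKY53 (AT4G23810), a transcription factor of defence and leaf senescence, read 604, 528 and 521 in Col0 and 262, 283 and 258 in sid2-2 (log2 -1.04, SE 0.12). GRX480 (AT1G28480), a glutaredoxin that binds TGA factors, read 375, 402 and 356 in Col0 and 195, 223 and 203 in sid2-2 (log2 -0.87, SE 0.15). The smallest fall of the list was that of the chitinase gene CHI (AT2G43570), which read 3704, 3444 and 4221 in Col0 and 2938, 2548 and 2461 in sid2-2 (log2 -0.52, SE 0.12, adjusted p = 0.0069, limma). Its groups did not overlap either, although they came closer than those of the other 3 genes. In mock leaves 3 of the 4 were called lower, CHI being the one that was not (log2 -0.13, SE 0.12), and for CHI the treatments did not differ detectably (adjusted p = 0.49, limma).

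The list of salicylic acid synthesis and its regulators had 2 named members of 22, and both were lower (against 4.17% of all probe sets). AT5G52810, known as SARD4, a reductase that completes pipecolic acid synthesis, read 995, 971 and 1084 in Col0 and 554, 551 and 478 in sid2-2 (log2 -0.95, SE 0.13, adjusted p = 0.00012, limma). SAG101 (AT5G14930), a partner of the immune regulator EDS1, read 216, 281 and 254 in Col0 and 188, 193 and 177 in sid2-2. Its fall was small (log2 -0.42, SE 0.14, adjusted p = 0.045, limma) and was no longer called under 9 of 17 alternatives, among them leaving out any 1 array but Col0 safener replicate 1 (adjusted p up to 0.129 over the alternatives, limma). Of the 3 tested genes for conjugation and turnover of the hormone, UGT76B1 was the only one called (against 4.17% of all probe sets called lower). WES1 (AT4G27260), which joins amino acids to auxin and salicylic acid, had a log2 difference of -0.25 (SE 0.18), and AT5G03490, a UGT, had 0.17 (SE 0.18). BSMT1 (AT3G11480), which methylates salicylic and benzoic acid, was listed on 2 sid2-2 safener arrays, at 16.6 and 18.1, and on no Col0 safener array.

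Beyond these lists, other immune and metabolic genes were among the 15 named genes with the largest falls, which ranged from 1.29 to 2.51 log2 units in size. The 15 genes with the largest falls and the 15 with the largest rises were taken from those whose listed arrays did not overlap between the genotypes, so that separation is part of how they were chosen. AT3G48080, a homologue of EDS1, read 148, 191 and 192 in Col0 and 38.4, 57.3 and 61.3 in sid2-2 (log2 -1.78, SE 0.16). AT5G45000, with the TIR domain of immune receptors, read 135, 142 and 156 in Col0 and 49.2, 50.7 and 48.4 in sid2-2 (log2 -1.54, SE 0.11). AT1G02360, a chitinase family gene, read 199, 191 and 187 in Col0 and 70.6, 76.9 and 89.5 in sid2-2 (log2 -1.29, SE 0.14). All 3 are of kinds known from plant immunity. The AAA-type ATPase gene AT3G28540 read 805, 739 and 765 in Col0 and 218, 257 and 256 in sid2-2 (log2 -1.66, SE 0.12, adjusted p = 1.73e-08, limma). AT4G00700, with a C2 domain, read 455, 659 and 639 in Col0 and 166, 195 and 197 in sid2-2 (log2 -1.64, SE 0.14).

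Metabolic genes stood among the falls as well. A cell wall invertase family gene, cwINV6 (AT5G11920), read 150, 128 and 117 in Col0 and 24.5, 33.9 and 34.3 in sid2-2 (log2 -2.10, SE 0.18, adjusted p = 3.8e-07, limma). SAL2 (AT5G64000) and AT5G09290, both of the inositol phosphatase family of SAL1, were lower as well. SAL2 read 584, 659 and 530 in Col0 and 214, 259 and 251 in sid2-2 (log2 -1.29, SE 0.15). AT5G09290 read 128, 116 and 122 in Col0 and 53.3 and 43.3 on the 2 sid2-2 arrays that listed it (log2 -1.34, SE 0.14). The UGT gene UGT73D1 (AT3G53150) read 183, 245 and 257 in Col0 and 65.9, 65.5 and 109 in sid2-2 (log2 -1.54, SE 0.18). Its call was lost when blanks, all on arrays outside this comparison, were filled with the lowest listed value of their array. Genes of no role given here were AT4G30230 (log2 -1.68, SE 0.15), AT3G48640 (log2 -1.29, SE 0.18), AT4G23610 (log2 -1.36, SE 0.23) and the transcribed pseudogene AT2G24160 (log2 -1.43, SE 0.14). Of the 93 probe sets at least 2-fold lower, 56 had no single gene in the annotation, and 7 of those fell further than UGT76B1, by log2 differences from -5.98 to -2.74. They are counted and not named.

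The jasmonate and ethylene defence list had 2 named members of 12, PDF1.2 and PDF1.2b, and both were higher in sid2-2 (against 8.94% of all probe sets). PDF1.2 (AT5G44420) had the largest rise of any named gene, at 846, 299 and 523 in Col0 and 4841, 2536 and 2433 in sid2-2. The Col0 arrays spread widely. The level was 6.09-fold higher (log2 2.61, SE 0.28, adjusted p = 6.01e-06, limma). In mock leaves the gap was wider, with 258, 226 and 277 in Col0 and 4868, 4955 and 5958 in sid2-2 (log2 4.37, SE 0.28), but the difference between the gaps was not called (log2 -1.77, SE 0.40, adjusted p = 0.11, limma). PDF1.2b (AT2G26020) read 644, 459 and 478 in Col0 and 2146, 1555 and 1398 in sid2-2 (log2 1.68, SE 0.21). Its probe set may bind near-identical defensin transcripts, so its value is not independent of that of PDF1.2. PDF1.4, a further plant defensin family gene, had a log2 difference of 0.06 (SE 0.22).

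**Figure D2:**
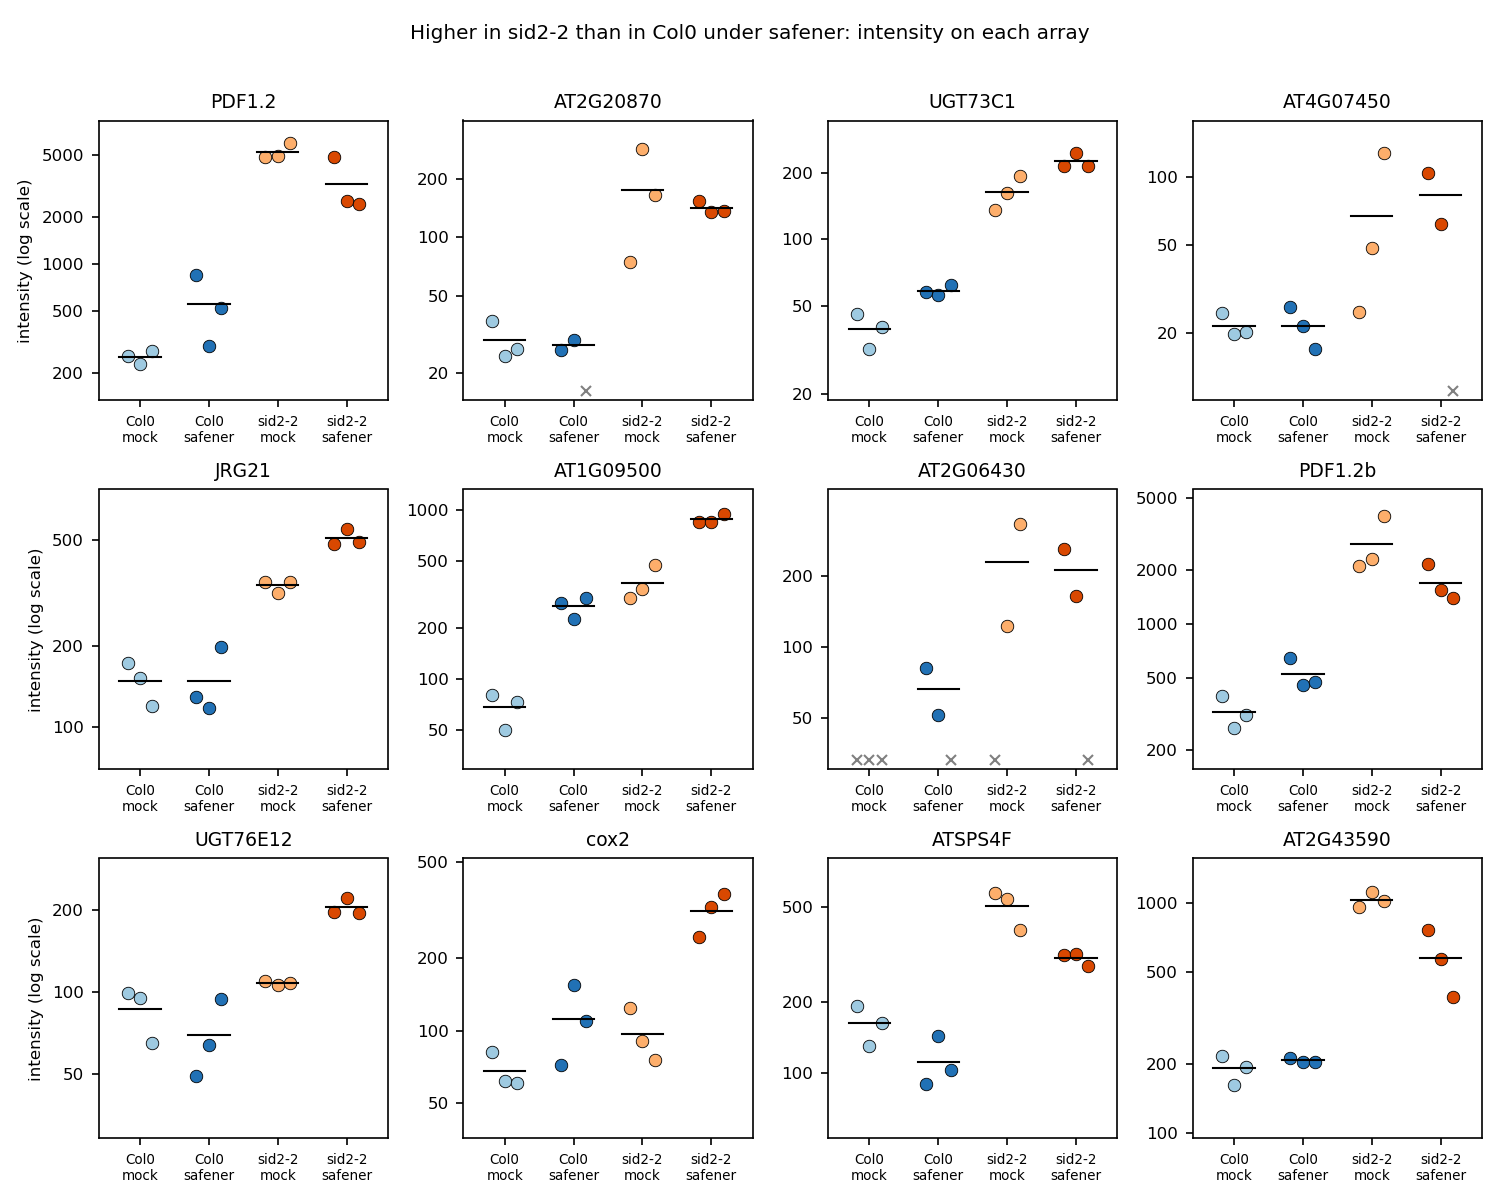
Intensity (log scale) of the 12 named genes with the largest rises in sid2-2 under safener, on each array of 4 groups of 3 arrays. Points are arrays, black lines are group means, and a grey x is an array with no listed value; for PDF1.2 the sid2-2 safener arrays lie between 2433 and 4841 and the Col0 safener arrays between 299 and 846.

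JRG21 (AT3G55970), a jasmonate-regulated oxygenase that uses 2-oxoglutarate, read 129, 118 and 199 in Col0 and 481, 551 and 491 in sid2-2 (log2 1.81, SE 0.20, adjusted p = 7.49e-06, limma). The list of jasmonate synthesis and response had 4 named members of 35. Among the 3 of them tested, 1 was called higher (against 8.94% of all probe sets). It was JMT (AT1G19640), which methylates jasmonic acid, at 48.8, 35.2 and 46.5 in Col0 and 56, 91.1 and 89 in sid2-2 (log2 0.84, SE 0.20). JAL23 (AT2G39330), a jacalin-related lectin, was not called (log2 0.65, SE 0.23, adjusted p = 0.069, limma). OPCL1 (AT1G20510), a CoA ligase of jasmonate synthesis, was not called either (log2 -0.06, SE 0.14). In mock leaves all 4 named members were called higher (against 17.3% of all probe sets), with a median log2 difference of 1.26. The fourth named gene of the list, the thionin THI2.1, was listed in sid2-2 alone and is given with such genes below. AT2G43590, a chitinase family gene, read 213, 204 and 204 in Col0 and 761, 572 and 390 in sid2-2 (log2 1.42, SE 0.17), in contrast to the lower chitinase genes AT1G02360 and CHI.

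Some detoxification genes, the targets by which safeners are known, were also higher in sid2-2. The xenobiotic response list had 10 named members of 29. All 10 were tested, 7 were higher (against 8.94% of all probe sets) and none was lower, with a median log2 difference of 0.61. The number called higher ranged from 5 to 8 over the alternatives, and was 5 without Col0 safener replicate 1 or without sid2-2 safener replicate 2. AT1G09500, of the cinnamyl alcohol dehydrogenase-like family, read 283, 226 and 302 in Col0 and 848, 852 and 945 in sid2-2 (log2 1.71, SE 0.19, adjusted p = 8.84e-06, limma). UGT73B5 (AT2G15480) read 286, 485 and 387 in Col0 and 649, 678 and 674 in sid2-2 (log2 0.82, SE 0.15). UGT73B4 (AT2G15490) read 132, 168 and 164 in Col0 and 293, 277 and 258 in sid2-2 (log2 0.84, SE 0.18). Its call was lost when blanks, all on arrays outside this comparison, were filled. The values of UGT73B5 were tighter in sid2-2. The alkenal reductase gene AER (log2 0.57, SE 0.13), the MATE transporter gene AT2G04050 (log2 0.65, SE 0.16), AT3G04000 (log2 0.54, SE 0.15) and AT5G61820 (log2 0.50, SE 0.11) were called too. GSTU25 (AT1G17180), a tau class glutathione transferase, read 528, 342 and 379 in Col0 and 733, 975 and 727 in sid2-2. Its groups did not overlap, but its adjusted p was 0.053 in limma (log2 0.98, SE 0.31). In mock leaves, 8 of the 9 list members tested were called higher in sid2-2 (against 17.3% of all probe sets) and none was lower. Their median log2 difference there was 1.18, so the excess of the list was also present without safener.

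The UGT family, which joins sugars to hormones, flavonoids and foreign compounds, went in both directions. Of 47 named genes, 30 were tested, 11 were higher and 2, UGT76B1 and UGT73D1, were lower (against 8.94% and 4.17% of all probe sets). The number higher ranged from 6 to 14 over the alternatives, with 6 without Col0 safener replicate 1 or without sid2-2 safener replicate 2, and 7 without sid2-2 safener replicate 3. UGT73C1 (AT2G36750), an enzyme known to glucosylate cytokinins, read 57.7, 56 and 62.3 in Col0 and 216, 247 and 216 in sid2-2. The level was 3.86-fold higher with little spread in either group (log2 1.95, SE 0.13, adjusted p = 1.55e-08, limma). UGT76E12 (AT3G46660) read 49.1, 63.9 and 94.6 in Col0 and 197, 222 and 196 in sid2-2 (log2 1.62, SE 0.22). In mock leaves UGT76E12 had a log2 difference of 0.34 (SE 0.22), and the treatments did not differ detectably (adjusted p = 0.14, limma). The related UGT76E11 was higher by 0.90 (SE 0.17), and the flavonoid glucosyltransferase UGT78D2 (AT5G17050) by 0.68 (SE 0.20). The call of UGT78D2 was lost under 6 of 17 alternatives, among them leaving out Col0 safener replicate 1 or sid2-2 safener replicate 2 or 3 (adjusted p up to 0.141, limma).

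Other detoxification families gave fewer calls. Of 8 tau class glutathione transferases tested, none was higher and 1 was lower (against 8.94% and 4.17% of all probe sets). GSTU27 (AT3G43800) was the one lower, at 527, 449 and 469 in Col0 and 302, 359 and 297 in sid2-2 (log2 -0.60, SE 0.10, adjusted p = 0.00053, limma). The number of tau class genes higher was 1 under 6 of the 17 alternatives, among them leaving out Col0 safener replicate 2, and 3 with array weights. GSTU25 was called under 5 of its 16 alternatives. The phi class gene GSTF4 had a log2 difference of -0.03 (SE 0.13). Of 11 cytochrome P450 genes tested, 4 were higher and 2 lower (against 8.94% and 4.17% of all probe sets). Without Col0 safener replicate 1, 2 were higher, and without Col0 safener replicate 3 or sid2-2 safener replicate 2, 1 was lower. Those described here are of the CYP71B group. CYP71B22 (AT3G26200) read 326, 367 and 310 in Col0 and 639, 529 and 612 in sid2-2 (log2 0.83, SE 0.10). CYP71B36 (AT3G26320) was higher by 0.95 (SE 0.15), while its relative CYP71B23 (AT3G26210) was lower (log2 -0.50, SE 0.12).

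**Figure D3:**
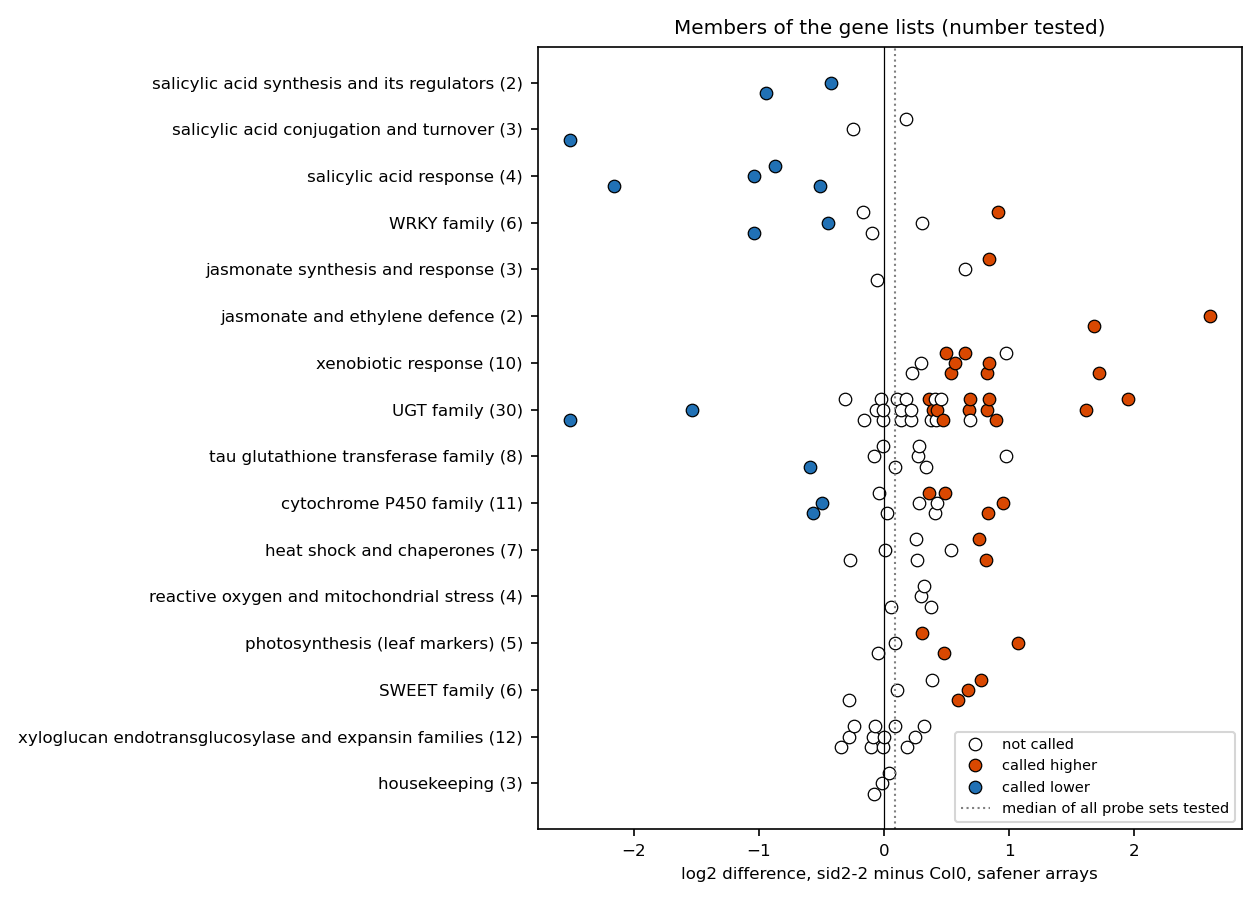
Log2 difference between sid2-2 and Col0 on the safener arrays (x axis) for the tested members of 16 gene lists, with the number tested in brackets. Each point is 1 gene, filled where called, and the dotted line is the median of all probe sets tested, 0.09; the 4 salicylic acid response genes are all called lower and 7 of 10 xenobiotic response genes are called higher.

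The heat shock and chaperone list had 8 named members of 23. Of 7 tested, 2 were higher (against 8.94% of all probe sets), and 1 was without Col0 safener replicate 1 or without sid2-2 safener replicate 1 or 2. The co-chaperone gene Hop3 (AT4G12400) read 47.9, 76.4 and 73.6 in Col0 and 93.8, 120 and 116 in sid2-2 (log2 0.76, SE 0.17). AT1G53540, a class I small heat shock protein, read 292, 353 and 367 in Col0 and 595, 614 and 565 in sid2-2 (log2 0.82, SE 0.20), and was listed on 1 of the 6 mock arrays. Neither was called when blanks, all on arrays outside this comparison, were filled. The call of AT1G53540 was also lost without Col0 safener replicate 1 or without sid2-2 safener replicate 1 or 2 (adjusted p up to 0.352 over all its alternatives, limma). WRKY22 (AT4G01250), a transcription factor of pattern-triggered immunity, read 87.1, 110 and 110 in Col0 and 188, 191 and 194 in sid2-2. The difference was clear under safener (log2 0.91, SE 0.15, adjusted p = 0.00038, limma) and not called in mock leaves (log2 0.04, SE 0.15), yet the difference between the treatments was not called (log2 0.87, SE 0.21, adjusted p = 0.13, limma). Of 6 WRKY genes tested, 1 was higher and 2 were lower (against 8.94% and 4.17% of all probe sets). WRKY22 was the one higher, and WRKY53 and WRKY47 were the ones lower. WRKY47 (log2 -0.45, SE 0.14) lost its call under 9 of 17 alternatives, among them leaving out any 1 array but Col0 safener replicate 1 (adjusted p up to 0.133 over the alternatives, limma).

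Some sugar transport and synthesis genes were among the rises. Of 14 named SWEET sugar transporter genes, 6 were tested and 3 were higher (against 8.94% of all probe sets), or 2 without Col0 safener replicate 2 or without sid2-2 safener replicate 1 or 2. SWEET17 (AT4G15920), a vacuolar fructose carrier, read 193, 253 and 244 in Col0 and 336, 363 and 332 in sid2-2 (log2 0.59, SE 0.12). SWEET16 (log2 0.78, SE 0.18) and SWEET2 (log2 0.67, SE 0.18), both of the vacuolar membrane, were called as well, SWEET2 losing its call without Col0 safener replicate 2 or without sid2-2 safener replicate 1 or 2 (adjusted p up to 0.078, limma). SWEET11, which loads the phloem, was not (log2 -0.28, SE 0.10, adjusted p = 0.083, limma). ATSPS4F (AT4G10120), a sucrose phosphate synthase, read 90, 142 and 103 in Col0 and 314, 317 and 283 in sid2-2 (log2 1.47, SE 0.19).

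The remaining genes among the 15 with the largest rises had mixed or no given roles. AT2G20870 read 26.1 and 29.5 on the 2 Col0 arrays that listed it and 153, 136 and 137 in sid2-2 (log2 2.35, SE 0.44). AT3G28220, with a TRAF-like domain, read 71.4, 59.2 and 93.6 in Col0 and 204, 188 and 182 in sid2-2 (log2 1.38, SE 0.19). AT1G07590, of the pentatricopeptide repeat family, read 69.1, 64.1 and 63.9 in Col0 and 259, 152 and 130 in sid2-2 (log2 1.39, SE 0.19). For AT1G07590, 1 sid2-2 array stood high. AT1G07590 was not called in mock leaves (log2 0.09, SE 0.19), nor was the difference between the treatments (adjusted p = 0.074, limma). The pseudogenes AT4G07450 (log2 1.92, SE 0.41) and AT2G06430 (log2 1.69, SE 0.44), whose probe sets may bind several transcripts, and AT1G19025 (log2 1.37, SE 0.18) had a blank in at least 1 group and lost their call when blanks were filled.

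Of 26 leaf photosynthesis markers, 5 are named and were tested, and 3 of them were called higher (against 8.94% of all probe sets), or 1 without Col0 safener replicate 1 or without sid2-2 safener replicate 2. LHCB4.3 (AT2G40100), a minor light-harvesting protein, was higher, at 357, 357 and 402 in Col0 and 829, 786 and 728 in sid2-2 (log2 1.07, SE 0.19). Phosphoribulokinase, PRK (log2 0.48, SE 0.13), and rubisco activase, RCA (log2 0.30, SE 0.10), were called too, RCA losing its call under 11 of 17 alternatives and PRK without Col0 safener replicate 1, without sid2-2 safener replicate 2 or with the arrays of the comparison alone. The summed level of the 5 markers was 12616 to 15816 on the Col0 arrays and 16662 to 17389 on the sid2-2 arrays. These ranges did not overlap, as was so in this direction for 21.5% of all probe sets tested. The sum is on the deposited scale, and with centred arrays 2 of the 5 markers were called higher. The part of this gap in the rises described above was not tested. Markers of other cell types gave single genes: the guard cell gene FMA read 71.2 to 80 in Col0 and 82.5 to 88.5 in sid2-2, the phloem gene SWEET11 1543 to 1826 and 1221 to 1551, and the root gene PYK10 255 to 328 and 228 to 322, and none was called.

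Transcripts encoded in the plastid genome, a group chosen after its values were seen, were 69 of the probe sets tested. All 69 had log2 differences above zero, with a median of 0.58 against 0.09 over all probe sets. As that overall median was above zero, most probe sets of the array lay above zero too. Of them 14 were called higher (20.3%, against 8.94% of all probe sets). Their median intensity was 517, 939 and 587 on the Col0 safener arrays and 852, 945 and 1254 on the sid2-2 safener arrays, so Col0 replicate 2 lay within the sid2-2 range. Without that array 41 were called higher, and without Col0 safener replicate 3 only 4. On the mock arrays the medians were 1206, 929 and 932 in Col0 and 1002, 903 and 837 in sid2-2. There, 31 of the 69 had differences above zero, against 66.2% of all probe sets tested in both treatments. The mitochondrial transcript cox2, for a subunit of cytochrome c oxidase, read 71.7, 155 and 110 in Col0 and 245, 325 and 370 in sid2-2 (log2 1.53, SE 0.24). The called share hardly varied over the nuclear chromosomes, with 7.93% to 9.3% higher and 3.94% to 4.36% lower on each of the 5.

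The other lists had few calls or none (over all probe sets, 8.94% were called higher and 4.17% lower). The reference genes AT2G28390, PEX4 and AT4G34270 had log2 differences of -0.08 (SE 0.08), 0.04 (SE 0.11) and -0.02 (SE 0.09), and the signs for PEX4 and AT4G34270 changed under some alternatives. None of 12 tested xyloglucan endotransglucosylase and expansin genes, which loosen cell walls, was called in either direction. None of 4 genes of reactive oxygen and mitochondrial stress was called under safener, with log2 differences from 0.06 for STZ to 0.38 for AT2G21640. In mock leaves 3 of the 4 were called higher (against 17.3% of all probe sets), with a median log2 difference of 0.66. The immune receptor genes and kinases EFR (log2 0.05, SE 0.11) and BIK1 (log2 0.34, SE 0.13) were not called, nor were COR15A (log2 0.53, SE 0.22) and COR47 (log2 0.12, SE 0.10) of the cold response or GI (log2 0.19, SE 0.13) of the clock. In the list for folding in the endoplasmic reticulum, the calreticulin gene CRT1b was lower (log2 -0.44, SE 0.10) and the transcription factor gene BZIP60 higher (log2 0.37, SE 0.12, lost under 8 of 17 alternatives, leaving out Col0 safener replicate 1 or sid2-2 safener replicate 2 or 3 among them). Some lists had a single tested gene, and these were not called: AT2G04400 for indole compounds (log2 0.17, SE 0.09), BCAT4 for aliphatic glucosinolates (log2 -0.23, SE 0.15), WRKY6 for senescence (log2 0.30, SE 0.15) and AUR1 for cell division (log2 0.25, SE 0.13). Of 2 flavonoid genes tested, UGT78D2 was called, and DFR, a reductase of anthocyanin synthesis, was not (log2 0.56, SE 0.35). The auxin-conjugating GH3.3 was lower, at 95.5, 89.7 and 131 in Col0 and 67.5 and 57.8 on the 2 sid2-2 arrays that listed it (log2 -0.73, SE 0.19), a call lost without Col0 safener replicate 3 or with blanks filled.

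Some probe sets were listed in 1 genotype alone and have no log2 difference. On the safener arrays, 73 were listed on all 3 sid2-2 arrays and no Col0 array (0.321% of 22746), and 16 on all 3 Col0 arrays and no sid2-2 array (0.0703%). Their median levels were low, at 36.3 and 41.8. The sid2-2 safener arrays listed more probe sets in general, 15548 to 16008 against 14627 to 15617 on the Col0 safener arrays. A further 239 and 61 were listed on 2 arrays of sid2-2 or Col0 and on none of the other genotype. Col0 safener replicate 1 had the most blanks of all arrays, and without it the counts were 100 in sid2-2 alone and 49 in Col0 alone, under a rule made looser by the missing array.

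**Figure D4:**
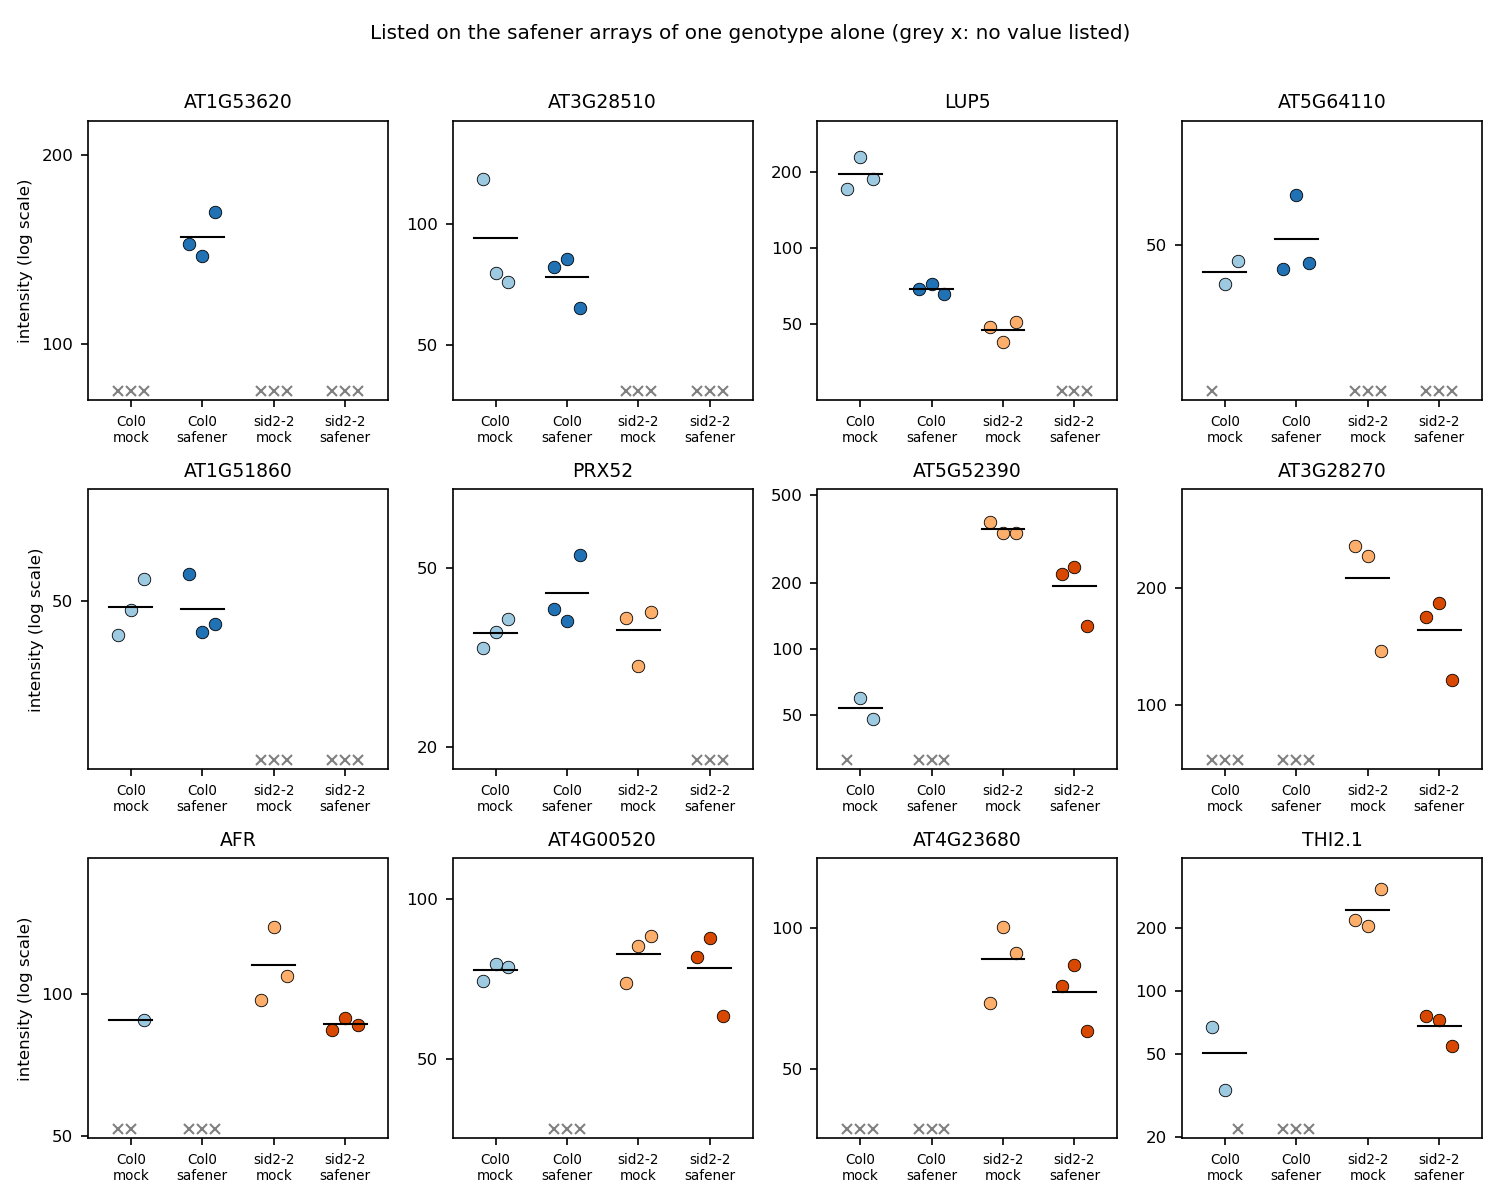
Intensity (log scale) on each array for the 6 brightest named genes listed on the safener arrays of Col0 alone (first 6 panels) and of sid2-2 alone (last 6 panels). Points are arrays, black lines are means of the listed values, and a grey x is an array with no listed value; AT1G53620 has values between 138 and 162 on the Col0 safener arrays and on no other array shown.

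Among genes listed in Col0 alone, AT1G53620 read 144, 138 and 162 on the safener arrays, and was blank on all mock arrays of both genotypes. LUP5 (AT1G66960), of the lupeol synthase family of triterpene enzymes, read 68.6, 71.6 and 65.4 on the safener arrays of Col0. In mock leaves it was listed in both genotypes and was lower in sid2-2, at 48.5, 42.3 and 51 against 172, 228 and 188 (log2 -2.04, SE 0.14, adjusted p = 3.92e-08, limma). AT3G28510, an ATPase gene related to AT3G28540, read 78.5, 81.9 and 62 in Col0, and was blank in sid2-2 in mock leaves too. The receptor-like kinase gene AT1G51860 (44.3 to 55.6) and the peroxidase genes AT5G64110 (44.9 to 62.9) and PRX52 (38.2 to 53.4) were dimmer. PRX52 was listed in both genotypes in mock leaves with a log2 difference of 0.01 (SE 0.17).

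Among genes listed in sid2-2 alone, AT5G52390 read 220, 235 and 127 on the safener arrays, and in mock leaves 380, 336 and 336 against 59.7 and 48.3 on the 2 Col0 arrays that listed it. AT3G28270 read 168, 183 and 116, and was blank on all 6 Col0 arrays of both treatments. THI2.1 (AT1G72260), a jasmonate-induced antimicrobial thionin, read 76.1, 72.4 and 54.6, and in mock leaves was higher in sid2-2 at 218, 205 and 308 against 67.2 and 33.4 in Col0 (log2 2.34, SE 0.28, adjusted p = 2.42e-05, limma). UGT71C3, at 52.1, 63.7 and 55.2, and the sugar transporter SWEET8, at 32.7, 21 and 17.1, belonged here as well. AT4G00520, a thioesterase family gene, read 77.9, 84.7 and 60.2, but was listed on all 6 mock arrays at similar levels in both genotypes (log2 0.10, SE 0.12). AFR, an F-box protein of phytochrome A signalling, read 84.1, 88.8 and 86.2 and was listed on 1 Col0 mock array at 88.1. For AFR and AT4G00520 a blank under safener thus does not show a low level in Col0 as such, nor does it for PRX52 in sid2-2. Of the 73 probe sets listed in sid2-2 alone, 22 were listed on at least 2 Col0 mock arrays. Of the 16 listed in Col0 alone, 5 were listed on at least 2 sid2-2 mock arrays.

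The genotype difference could be set against the same difference in mock leaves, which rests on 6 other arrays. There, 2596 of 15002 probe sets tested were higher in sid2-2 (17.3%) and 805 were lower (5.37%). Over the 14524 probe sets tested in both treatments, the differences correlated across probe sets at 0.687, as a description. Of 1282 higher under safener, 840 were also called higher in mock leaves, which is 65.5% of the safener calls and 33% of the mock calls, against 17.5% of all probe sets. Of 608 lower under safener, 384 were also called lower in mock leaves, 63.2% and 48.5%, against 5.45% of all. Fitted to the 6 arrays of each treatment alone, so that the comparisons shared no spread, 492 of 738 higher and 237 of 430 lower were called the same way. In that fit, 9.95% of all probe sets were called higher in mock leaves and 3.35% lower. Of the 89 tested in both that were at least 2-fold lower under safener, all 89 lay below zero in mock leaves and 79 were called. Of the 68 at least 2-fold higher, 65 lay above zero in mock leaves and 53 were called. Over all 14524 probe sets, 33.8% lay below zero in mock leaves and 66.2% above, so the sign alone says less for the higher ones. Of the 15 named genes with the largest falls, 14 were called lower in mock leaves, AT3G48640 being the exception (log2 -0.38, SE 0.18), and of the 13 tested with the largest rises, 10 were called higher.

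**Figure D5:**
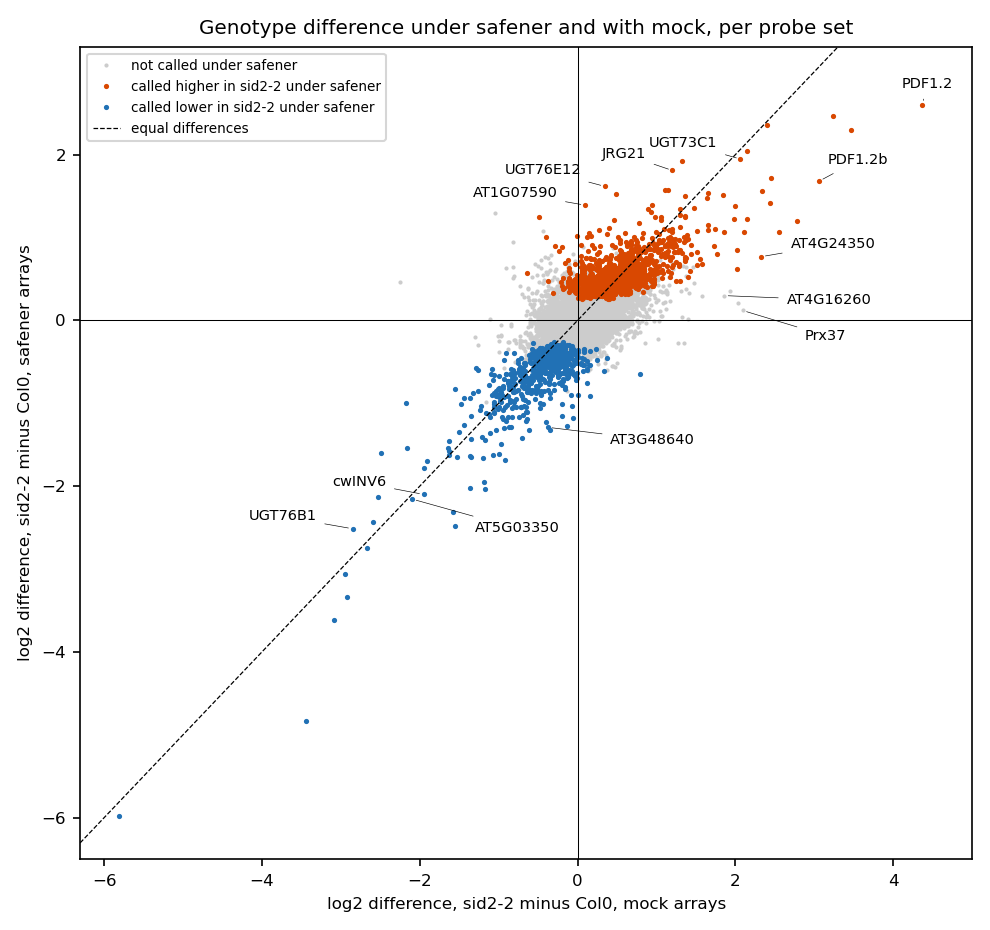
Log2 difference between sid2-2 and Col0 for each probe set tested in both treatments, on the mock arrays (x axis) and the safener arrays (y axis), 14524 in all. Colour marks probe sets called under safener; most have the same sign on both axes, and PDF1.2 lies at 4.37 and 2.61.

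Whether the genotype difference itself depended on the safener was tested as the difference of the differences. It was called for 15 of 14524 probe sets (0.103%), with 3 higher (0.0207%) and 12 lower (0.0826%). Of these, 4 had a single named gene, all with a smaller excess of sid2-2 under safener than in mock leaves. The called probe sets with no single gene showed other patterns as well. In 1 of them the deficit of sid2-2 was wider under safener (log2 -4.83) than in mock leaves (log2 -3.45). Another was higher in sid2-2 under safener (log2 0.57) and lower in mock leaves (log2 -0.63). Leaving out any 1 array of Col0 or sid2-2 moved the number higher to between 0 and 6 and the number lower to between 5 and 18. The phosphorylase superfamily gene AT4G24350 read 247, 254 and 248 in Col0 and 494, 432 and 361 in sid2-2 under safener, and 168, 166 and 178 against 727, 890 and 979 in mock leaves. The gap narrowed from both sides, by a log2 difference of -1.56 (SE 0.20, adjusted p = 0.0018, limma). AT3G23550, a MATE transporter, read 764, 730 and 939 in Col0 and 1751, 1730 and 1575 in sid2-2 under safener, and 272, 355 and 299 against 1676, 1837 and 1883 in mock leaves. Here the sid2-2 arrays stayed in 1 range while the Col0 arrays were higher after safener (log2 -1.49, SE 0.19, adjusted p = 0.0018, limma).

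The glucanase family gene AT4G16260 read 1462, 1401 and 2048 in Col0 and 2195, 2231 and 1599 in sid2-2 under safener, where the groups overlapped. In mock leaves it read 611, 916 and 816 against 2694, 2844 and 2832, with the groups far apart (difference of the differences log2 -1.56, SE 0.23, adjusted p = 0.0064, limma). Prx37 (AT4G08770), a cell wall peroxidase, read 292, 208 and 278 in Col0 and 387, 261 and 216 in sid2-2 under safener. In mock leaves it read 71.4, 98.6 and 74.3 against 261, 276 and 564 (log2 -1.97, SE 0.36, adjusted p = 0.045, limma), and this call was lost under 10 of 20 alternatives.

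The TGA mutant on its 3 safener arrays gives further levels for the same genes. Its difference from Col0 uses the same Col0 safener arrays, so the 2 mutants' differences are given side by side only. For the TGA mutant they are given without SE or calls, so a sign or a value near zero there is a description only. UGT76B1 read 97.6, 107 and 103 in the TGA mutant, below both other genotypes, with a log2 difference from Col0 of -3.87 there and -2.51 in sid2-2. GRX480 read 66.3, 68.9 and 52, with -2.61 in the TGA mutant and -0.87 in sid2-2. PDF1.2 read 3176, 2597 and 2331, with 2.39 and 2.61, so both mutants lay above Col0. Some genes low in sid2-2 read near the Col0 level in the TGA mutant. AT5G03350 read 1472, 1388 and 1198 there, with a log2 difference from Col0 of -0.28 where sid2-2 had -2.16. The cell wall invertase gene cwINV6 read 169, 156 and 157, with 0.30 and -2.10, and AT3G48080 read 169, 154 and 135, with -0.21 and -1.78. WRKY53 read 512, 490 and 505, with -0.13 and -1.04.

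The other genes with the largest falls in sid2-2 had a range of values in the TGA mutant. The log2 differences from Col0, the TGA mutant first and sid2-2 second, were 0.14 and -1.64 for AT4G00700, 0.07 and -1.29 for SAL2, -0.07 and -1.43 for AT2G24160, and -0.34 and -1.36 for AT4G23610. They were -0.43 and -1.34 for AT5G09290, -0.49 and -1.66 for AT3G28540, -0.88 and -1.54 for AT5G45000, and -0.97 and -1.68 for AT4G30230. AT3G48640 had -1.05 and -1.29, and the chitinase gene AT1G02360 -1.08 and -1.29. The UGT gene UGT73D1 had -3.16 and -1.54, and the reductase gene AT5G52810 -0.78 and -0.95.

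Some detoxification genes had differences of opposite sign from Col0 in the 2 mutants. UGT73C1 read 29.9, 30.7 and 27.1 in the TGA mutant, a log2 difference from Col0 of -1.01 where sid2-2 had 1.95. AT1G09500 read 78.7, 62.7 and 69, with -1.94 and 1.71. UGT73B5 read 117, 89.1 and 107, with -1.86 and 0.82, and AT5G61820 read 956, 797 and 909, with -1.63 and 0.50. AT3G04000 had -1.30 and 0.54. For AT4G13180 the values were -4.0 and 0.30, and for AT4G01870 -1.34 and 0.22, neither called in sid2-2. The MATE transporter gene AT2G04050 had 0.96 in the TGA mutant and 0.65 in sid2-2, and UGT76E12 had 0.37 and 1.62. GSTU25 and UGT73B4, both listed on all safener arrays of Col0 and sid2-2, were blank on the 3 safener arrays of the TGA mutant, and AER was listed on 1 of them. The small heat shock gene AT1G53540, of the chaperone list, read 124, 107 and 215, with -1.24 and 0.82.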

How the data were processed

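RNA of rosette leaves was hybridised to Affymetrix ATH1 arrays, 3 per genotype and treatment. The deposited values are intensities on a linear scale, made with RMA per the submitters' processing notes. The sources used here do not give its version, the scaling or the rule for blanks. Each listed intensity was converted to log2 with no rescaling, and blanks were left missing. Of 22810 rows, 64 array controls were left out; 13513 of 22746 probe sets name 1 gene in the platform annotation, 503 several, and 8730 have no entry and are counted, not named.

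The means of 6 groups were fitted per probe set to 18 arrays in limma 3.58.1 (lmFit, eBayes; R 4.3.3), where each group compared had at least 2 listed values. P-values were adjusted by Benjamini-Hochberg over all probe sets tested, with calls at 0.05. The script was tested on simulated data. Nothing beyond the label says how separate the replicate samples were; p-values measure the spread between them. The precision is limited by 3 arrays per group.

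Named genes are the 15 most raised and 15 most lowered called genes whose arrays do not overlap, the 8 brightest listed in each genotype alone, called genotype-by-treatment genes, and per list the 4 members of smallest adjusted p. Other list members and the plastid group were chosen after their values were seen. The members and lists were chosen with earlier results of these data known. Alternatives covered scaling, blanks, level filters, arrays in the fit, limma options, a replicate block and leaving out each array. Sequences were not analysed here.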

Additional observations from a re-analysis of the deposited data

Results flagged for a closer look

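For 4 named genes the difference between sid2-2 and Col0 itself differed between the safener and the mock arrays, by limma's test of the difference of the differences. It was -1.97 on the log2 scale for Prx37, -1.56 for AT4G24350, -1.56 for AT4G16260 and -1.49 for AT3G23550. In all 4 genes every Col0 safener array read above every Col0 mock array. The sid2-2 arrays of AT3G23550 and Prx37 overlapped between the treatments, while those of AT4G24350 and AT4G16260 were all lower under safener. The cause was not tested.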

How the results depend on the processing

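No called value changed sign: of 1762 values of 106 named results under the alternatives, 1637 kept their direction and their side of the threshold, 73 lost the call, 24 gained it and 28, of 11 results not called in the main or the changed setting, changed sign. On the log2 scale, centred scaling gave -0.013 for EFR, -0.0081 for STZ, -0.029 for PEX4 and -0.0086 for PDF1.4, and quantile normalization 0.011 for GSTF4. Array weights gave -0.0043 for AT5G03490, -0.11 for EFR, -0.010 for STZ, -0.025 for PEX4, 0.022 for AT4G34270 and 0.11 for GSTF4. Without any 1 array, the log2 differences under safener ranged from -0.11 to 0.31 for Prx37, -0.044 to 0.30 for AT5G03490, -0.15 to 0.0059 for OPCL1, -0.021 to 0.17 for EFR, -0.00093 to 0.35 for GI, -0.066 to 0.11 for PEX4, -0.076 to 0.049 for AT4G34270, -0.16 to 0.084 for PYK10, -0.14 to 0.034 for GSTF4 and -0.10 to 0.26 for PDF1.4.

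Centred scaling gave 964 probe sets lower. Filling blanks gave 192 at least 2-fold higher, and 13 higher and 30 lower for genotype by treatment. The 6 arrays alone gave 778 higher. Array weights gave 2681 higher and 1107 lower, and 38 and 71 for genotype by treatment. The 12 arrays of both genotypes gave 1 and 4 there, and a mean-variance trend 20 lower. Counting listing on at least 2 arrays gave 312 in sid2-2 alone and 77 in Col0 alone. The causes were not tested.

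Without any 1 of the arrays, the calls ranged over 739 to 1651 higher and 449 to 548 lower, 66 to 98 and 84 to 98 at least 2-fold, and 0 to 6 higher and 5 to 18 lower for genotype by treatment. For the mock comparison it gave 1453 (without Col0 mock replicate 2) to 3015 higher and 506 to 790 lower; without sid2-2 mock replicate 3, 1664 were higher. Listed in sid2-2 alone were 100 to 200 and in Col0 alone 25 to 49, under a rule made looser by the missing array.

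Same-numbered safener arrays of Col0 and sid2-2 deviated together at r = 0.46, 0.039 and -0.0055, and mock arrays at 0.14, -0.065 and -0.074. The numbers were not taken as pairs in the main fit, although the 2 safener arrays of replicate 1 may share a deviation. With the replicate number as a block, 1258 were higher and 602 lower, and 1 and 5 for genotype by treatment.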
